A study of Mus musculus with 13 samples.

Results

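Laminins and the other structural genes of the basement membrane were followed in CD4+ CD8+ double-positive thymocytes labelled as knockout for the cohesin subunit Rad21. The set holds 9 genes: the laminin chains Lama3, Lama5, Lamb1, Lamb2, Lamb3 and Lamc1, the proteoglycans Hspg2 and Agrn, and the linker Nid1. They were taken by symbol from the 17849 Ensembl genes of the deposited table, and all 9 had a row. The choice was made with results of the same genotype contrast in view, so the differences between genotypes in these 9 genes are given as a description. The fit across all genes included 6 of them, and its calls on them support nothing here. Lama5, Lamb1 and Nid1 did not pass the filter on low counts.

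RNA was compared between 2 libraries of sorted Rad21 KO thymocytes and 2 libraries of sorted wild type (WT) thymocytes. The labels give the genotype and the cell type. The age, the way in which Rad21 was deleted, and whether libraries of a genotype came from separate animals were not given in the labels. Any p-value therefore reflects only how far these 4 samples spread, and that spread may be technical. The series also lists ChIP and Hi-C libraries, not used here. Rad21 itself, the ring subunit targeted in the knockout, had 496 and 473 counts in the Rad21 KO libraries, against 1982 and 1682 in the WT libraries. Its RNA was thus lower in the knockout but not absent, with a log2 fold change of -1.91 (SE 0.12).

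A laminin is a heterotrimer of an α, a β and a γ chain, secreted as a finished trimer that polymerises into a sheet on the cell surface. Nidogen and the heparan sulfate proteoglycans perlecan and agrin join that sheet to the collagen IV network, and integrins and dystroglycan anchor it to cells. In the thymus, basement membranes underlie the epithelium and the vessels. Thymocytes bind laminins through integrins, and the stroma is the textbook source of most of these proteins.

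The promoter window of the gene with the higher RNA level in the knockout, Hspg2, is shown beside that of Lamb3, a member with a like WT count whose genotypes overlapped. Each runs from 250 bases before to 50 bases after a RefSeq start on build GRCm38.p6, both lie on the + strand, and capitals mark GC boxes (GGGCGG, read on both strands). Coordinates are chr4:137468553-137468852 for Hspg2 and chr1:193301744-193302043 for Lamb3, the one with the lower coordinate of its 2 listed starts.
Hspg2: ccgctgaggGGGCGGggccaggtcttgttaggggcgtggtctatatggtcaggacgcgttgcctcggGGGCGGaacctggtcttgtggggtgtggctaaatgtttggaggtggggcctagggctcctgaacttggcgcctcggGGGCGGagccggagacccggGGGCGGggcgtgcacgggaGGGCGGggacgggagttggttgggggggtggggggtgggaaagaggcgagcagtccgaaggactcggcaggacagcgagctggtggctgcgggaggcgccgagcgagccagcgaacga
Lamb3: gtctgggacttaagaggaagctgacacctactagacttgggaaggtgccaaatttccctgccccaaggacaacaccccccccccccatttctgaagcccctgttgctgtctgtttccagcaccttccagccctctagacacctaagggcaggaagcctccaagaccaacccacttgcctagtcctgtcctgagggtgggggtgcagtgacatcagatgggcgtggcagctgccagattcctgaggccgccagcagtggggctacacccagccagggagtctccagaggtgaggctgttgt
The Hspg2 window held 5 GC boxes, all on its + strand, and 70.3% G and C, while the Lamb3 window held 0 and 59.3%. Over all 32851 RefSeq promoter windows of 300 bases, 35.7% held a GC box and the median G and C content was 52.7%. The TATA box TATAAA (13.6% of all windows), the CCAAT box (37.4%) and the E-box CACGTG (7.15%), each read on both strands, occurred in neither of the 2 windows. Windows of Lama3 and Lamc1 were not examined here, so nothing is said of their promoters, or of whether a window was available. This left windows for 7 of the 9 members. Among these, the Agrn window with the higher coordinate had the highest G and C content at 83.3%, with 3 GC boxes on its own strand and 9 on the other, and the Lamb2 window the lowest at 44.0% with 0. The Lama5 window had 2 GC boxes on each strand, that of Lamb1 had 2 and that of Nid1 had 1. These matches describe the letters of the windows, not sites in use.

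RNA levels are given as counts or as CPM, the usual depth-scaled counts, here at library sizes adjusted by edgeR's TMM factors. The adjusted sizes lay between 7195011 and 7318677, so counts of 1 gene can be read across the 4 libraries almost directly. Levels of different genes were not compared, since transcript lengths were not used here.

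**Figure D1:**
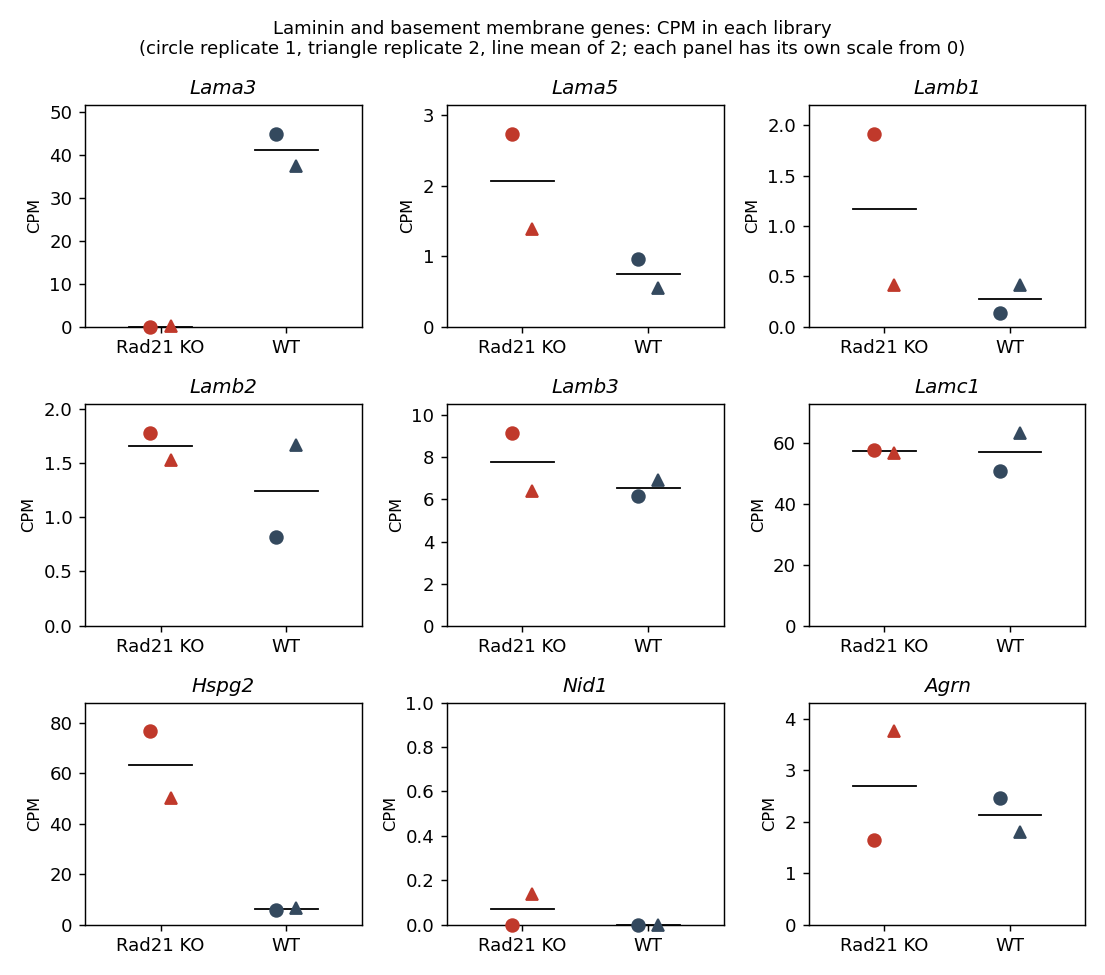
CPM of the 9 genes in each library, Rad21 KO on the left and WT on the right of each panel; circles are replicate 1, triangles replicate 2 and lines the mean of 2, on a separate linear axis from 0 for each gene. Lama3 is at 0 and 0.139 CPM in the Rad21 KO libraries, against 45.0 and 37.5 in WT, Hspg2 is at 76.7 and 50.3 CPM, against 6.01 and 6.79, and the Lamc1 libraries of the 2 genotypes overlap.

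Among the α chains, Lama3 RNA was close to absent in the knockout. Lama3, whose product is the α chain of the laminin that anchors epithelia at hemidesmosomes, had 0 and 1 counts in the Rad21 KO libraries, against 329 and 271 in the WT libraries. Both WT libraries stood far above both knockout libraries. Summed over libraries the gene was 598-fold lower in Rad21 KO, with a 95% counting interval of 107 to 23670 that covers counting error only. Its fitted log2 fold change was the lowest of the 12003 genes tested. The size of the ratio hangs on 1 count: without Rad21 KO replicate 1 it was 297-fold lower. In Rad21 KO replicate 1 alone, with 0 counts, a floor of 3 counts per library gives at least 100.5-fold lower. Lama5, the α chain of the most widespread laminins of adult tissue, had 20 and 10 counts in Rad21 KO, against 7 and 4 in WT, a summed ratio of 2.74 with a counting interval of 1.33 to 6.05. The Lama5 interval also covers counting error only, not the spread between libraries. The lower knockout library stood 3 counts above the higher WT library, and the gene was too low to be fitted. Lama2 and Lama4 had 3 counts or fewer in every library, and Lama1 was not matched to a row.

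The β chains had low counts, and the libraries of the genotypes overlapped or tied in each. Lamb3, which pairs with the Lama3 chain in the hemidesmosomal laminin, had 67 and 46 counts in Rad21 KO, against 45 and 50 in WT, so the groups overlapped. It averaged 7.78 ± 1.96 CPM in Rad21 KO and 6.54 ± 0.549 CPM in WT (SD, n = 2), with a log2 fold change of 0.25 (SE 0.29). Lamb2, the β chain best known from the neuromuscular junction and the kidney filter, had 13 and 11 counts in Rad21 KO, against 6 and 12 in WT. Its log2 fold change was 0.41 (SE 0.50). Lamb1, the β chain of most embryonic laminins, had 14 and 3 counts in Rad21 KO, against 1 and 3 in WT. Only Rad21 KO replicate 1 stood above the rest, and Rad21 KO replicate 2 had the same count as WT replicate 2. The summed ratio was 4.26 with a counting interval of 1.39 to 17.4, which leaves out this spread between libraries.

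The γ chain Lamc1, shared by most laminins, was at a like level in both genotypes. It had 421 and 409 counts in Rad21 KO, against 372 and 458 in WT, with the knockout libraries between the WT libraries. The summed counts were 830 in Rad21 KO and 830 in WT, a ratio of 1.00 with a counting interval of 0.910 to 1.10, and the log2 fold change was 0.0029 (SE 0.14). Lamc3 had 1 count or fewer in every library.

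Hspg2 was the fitted member that stood higher in the knockout. It encodes perlecan, the large heparan sulfate proteoglycan that ties laminin to collagen IV and holds growth factors. Hspg2 had 560 and 362 counts in the Rad21 KO libraries, against 44 and 49 in the WT libraries. Both knockout libraries stood far above both WT libraries, and they differed from each other more than the WT libraries did. The mean was 63.5 ± 18.6 CPM in Rad21 KO and 6.40 ± 0.547 CPM in WT (SD, n = 2). The log2 fold change was 3.31 (SE 0.25), the 29th highest of 12003. The summed ratio was 9.94 with a counting interval of 8.03 to 12.4, which leaves out the spread between libraries. Leaving out each library in turn gave 2.98 to 3.59 on the log2 scale, the lowest without Rad21 KO replicate 1.

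The other proteoglycan and the linker did not follow Hspg2. Agrn, whose product agrin gathers acetylcholine receptors at the neuromuscular junction, had 12 and 27 counts in Rad21 KO, against 18 and 13 in WT, so the groups overlapped. Its log2 fold change was 0.34 (SE 0.50) and ran from -0.36 without Rad21 KO replicate 2 to 0.82 without Rad21 KO replicate 1. Nid1, which bridges laminin and collagen IV, had 0 and 1 counts in Rad21 KO, against 0 and 0 in WT. That is under the floor of 3 counts per library, 0.410 to 0.417 CPM, so no ratio is given.

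Counting the 6 fitted members, 1 had an adjusted p under 0.05 and was higher (Hspg2), 1 was lower (Lama3) and 4 did not pass, in edgeR's quasi-likelihood test. Over all genes tested 12.8% passed, 7.60% higher and 5.17% lower in Rad21 KO. As the members were chosen on this contrast, nothing is read from that count. In 2 of the 6 the libraries of the genotypes did not overlap, against 58.9% of all genes tested. Lars2 (a mitochondrial tRNA synthetase gene) with Gm15564 made up 34.5% of counts in Rad21 KO replicate 1 and 12.6% in Rad21 KO replicate 2, against 5.84% and 7.47% in WT. Rad21 KO replicate 1 was also the highest of the 4 libraries in CPM for Hspg2, Lama5, Lamb1, Lamb2 and Lamb3. With Lars2 and Gm15564 left out, the log2 fold change of Hspg2 was 3.299. The loci of Hspg2, Lama3, Lama5, Lamb3, Lamc1 and Agrn overlap a noncoding gene, miRNA or pseudogene in RefSeq. Whether counting used strand is not stated in the sources at hand, and reads from these overlapping genes cannot be told apart without it.

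Marker genes of the cells that such a sort could hold were set beside these values. The 12 markers of double-positive thymocytes were all measured and summed to 12590 and 11220 CPM in Rad21 KO, against 17320 and 15980 CPM in WT. Of the 12, 5 fell (Rag1, Rag2, Themis, Dntt and Cd1d1), 0 rose and 7 did not pass. The shares over all genes tested were 5.17% lower and 7.60% higher. Fewer cells of a type and less RNA per cell cannot be told apart in such bulk samples. Markers of thymic epithelium, a stromal source of laminins, summed to 80.5 and 80.5 CPM over 12 genes in Rad21 KO, against 42.9 and 45.8 CPM in WT. The epithelial adhesion gene Epcam, with 69 and 84 counts in Rad21 KO against 11 and 7 in WT, and the claudin gene Cldn4, with 378 and 345 against 154 and 161, both rose (log2 fold changes 3.08 and 1.20; edgeR adjusted p = 0.00355 and 0.00353). Cldn4 averaged 49.8 CPM in Rad21 KO and 21.7 CPM in WT, and Epcam averaged 10.6 and 1.24 CPM. The higher epithelial sum in Rad21 KO came from these 2 genes, not from the list as a whole. Which cells of the sort held their RNA was not tested. The other 10 epithelial markers ranged from 0 to over 100 counts and did not pass or were too low to test. Foxn1, the epithelial master regulator, had 1 and 0 counts in Rad21 KO, against 2 and 0 in WT, Krt14 had 0 and 2, against 0 and 0, and Krt5 had 0 and 3, against 2 and 4. The proteasome gene Psmb11, known from cortical epithelium, had 109 and 117 counts in Rad21 KO, against 110 and 112 in WT. Aire, the regulator of medullary epithelium, had 18 and 10 counts in Rad21 KO, against 9 and 13 in WT, and the chemokine gene Ccl25 had 11 and 6, against 11 and 20. Krt8 had 1 and 2 counts in Rad21 KO, against 5 and 2 in WT, and Krt18 had 1 and 10, against 9 and 9. Cldn3 and Trp63 had 3 counts or fewer in every library.

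Other possible sources were followed by markers too. Fibroblast markers (8 of 10 in the table) summed to 1131 and 924 CPM in Rad21 KO, against 1420 and 1269 in WT, nearly all of it from Thy1, which thymocytes also express. Pdgfra, Fbn1 and Twist1 had 0 counts in all 4 libraries, and Dcn had 1 count or fewer. The collagen gene Col1a2 had 0 and 1 counts in Rad21 KO, against 14 and 9 in WT, so its libraries did not overlap and stood lower in the knockout, as those of Lama3 did. It was too low to test. Col1a1 had 1 and 11 counts in Rad21 KO, against 4 and 12 in WT, and Pdgfrb had 10 and 7, against 10 and 20. Endothelial markers (9 of 10) summed to 160 and 163 CPM in Rad21 KO, against 212 and 226 in WT, with Cdh5 at 0 counts throughout and Kdr at 2 counts or fewer. Of these, Pecam1, also a leukocyte gene, fell by 0.58 on the log2 scale (edgeR adjusted p = 0.0143). Markers of pericytes and smooth muscle (6 of 7) summed to 153 and 126 CPM in Rad21 KO, against 58.3 and 70.1 in WT. There Notch3, also a thymocyte gene, had 1040 and 825 counts in Rad21 KO, against 364 and 432 in WT, while Rgs5 had 0 and 0, against 1 and 1. Macrophage and dendritic markers summed to 23.8 and 37.8 CPM in Rad21 KO, against 32.7 and 28.8 in WT, B cell markers to 423 and 370, against 330 and 320, and erythroid and platelet markers to 4.38 and 7.64, against 7.51 and 7.48. No tested gene of these last lists passed in edgeR's quasi-likelihood test. The part of any of these cells in the levels of Hspg2 and Lama3 was not tested.

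Among other components of the basement membrane, Col15a1 rose and Smoc1 fell. Of 27 listed genes 7 passed the count filter; 1 rose, 1 fell and 5 did not pass the test, with a median log2 fold change of 0.43 against -0.01 over all genes tested, of which 7.60% rose and 5.17% fell. Smoc1, a calcium-binding matrix protein of basement membranes, had 312 and 235 counts in Rad21 KO, against 904 and 1111 in WT. The knockout libraries stood below both WT libraries, with a log2 fold change of -1.88 (SE 0.17; edgeR adjusted p = 0.00188). Col15a1, a collagen that borders basement membranes and carries chondroitin sulfate, had 210 and 155 counts in Rad21 KO, against 79 and 76 in WT, a log2 fold change of 1.24 (SE 0.21; edgeR adjusted p = 0.0120). The most widespread collagen IV chains were near 0, with Col4a1 and Col4a2 at 2 counts or fewer in every library, and Nid2 at 6 and 3 counts in Rad21 KO, against 1 and 2 in WT. Col4a3 had 12 and 9 counts in Rad21 KO, against 3 and 5 in WT, and was too low to test.

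Among receptors for laminin, agrin or perlecan, Itga3 and Dag1 rose. Of 23 listed genes 15 were tested, with a median log2 fold change of 0.23. Of the 15, 2 rose, 0 fell and 13 did not pass, against 7.60% higher and 5.17% lower over all genes tested. Itga3, the integrin α chain that binds the laminins containing Lama3 and Lama5 chains, had 501 and 980 counts in Rad21 KO, against 236 and 296 in WT. Both knockout libraries were higher, Rad21 KO replicate 2 the most, with a log2 fold change of 1.48 (SE 0.31; edgeR adjusted p = 0.0260). It was 0.92 without that library, and still past the threshold. Dag1, which encodes dystroglycan, had 140 and 130 counts in Rad21 KO, against 76 and 74 in WT, a log2 fold change of 0.85 (SE 0.18; edgeR adjusted p = 0.0279). The Dag1 call went below the threshold without Rad21 KO replicate 1 (0.82), WT replicate 1 (0.86) or WT replicate 2 (0.84), and in DESeq2 (0.85). The main laminin-binding integrin chains of lymphocytes, Itga6 and Itgb1, were chosen after their values were seen. Itga6 stood at 0.10 (SE 0.10) and Itgb1 at -0.17 (SE 0.11) on the log2 scale, and neither passed.

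Enzymes that build the sugar chains of dystroglycan and of heparan sulfate were mostly not past the threshold. Of 23 listed genes 20 were tested, with a median log2 fold change of -0.22. Of the 20, 1 rose, 1 fell and 18 did not pass, against 7.60% higher and 5.17% lower over all genes tested. Glce, the epimerase that converts glucuronic to iduronic acid in heparan sulfate, had 207 and 202 counts in Rad21 KO, against 129 and 109 in WT, a log2 fold change of 0.78 (SE 0.16; edgeR adjusted p = 0.0263). Its call was lost without WT replicate 2 (0.67). Hs2st1, a sulfotransferase that acts on that iduronic acid, had 258 and 269 counts in Rad21 KO, against 385 and 383 in WT, a log2 fold change of -0.54 (SE 0.12; edgeR adjusted p = 0.0343). Hs2st1 missed the threshold whichever library was left out (-0.57 to -0.49), in DESeq2 (-0.54) and with the replicate block (-0.54).

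The list of proteases, cross-linkers and inhibitors held the largest rise among the pathway genes tested. Of 20 listed genes 10 were tested, with a median log2 fold change of -0.24. Of the 10, 1 rose, 1 fell and 8 did not pass, against 7.60% higher and 5.17% lower over all genes tested. Mmp14, a membrane-bound protease that cleaves laminin and collagen chains, had 168 and 190 counts in Rad21 KO, against 27 and 30 in WT. The genotypes did not overlap, and the log2 fold change was 2.65 (SE 0.21; edgeR adjusted p = 0.00142). Plod2, a lysyl hydroxylase that prepares collagen for cross-linking, had 89 and 111 counts in Rad21 KO, against 177 and 165 in WT, a log2 fold change of -0.77 (SE 0.19; edgeR adjusted p = 0.0403). Plod2 missed the threshold without Rad21 KO replicate 1 (-0.60), WT replicate 1 (-0.73) or WT replicate 2 (-0.81), and in DESeq2 (-0.77). Of 20 genes of the interstitial matrix, which fibroblasts lay down, 3 were tested and 0 passed in edgeR's quasi-likelihood test, DESeq2 or limma-voom, and 0 had an unadjusted edgeR p under 0.05. Of these, the proteoglycan gene Vcan had 16 and 17 counts in Rad21 KO, against 31 and 15 in WT, and Ecm1 had 8 and 20, against 16 and 21. With no filter on low counts Col15a1 (1.23), Itga3 (1.48), Dag1 (0.85), Glce (0.78), Hs2st1 (-0.54) and Plod2 (-0.77) missed the threshold at these log2 fold changes, while Smoc1 and Mmp14 passed. Dag1 (0.85) and Plod2 (-0.77) missed it with the replicate block as well.

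**Figure D2:**
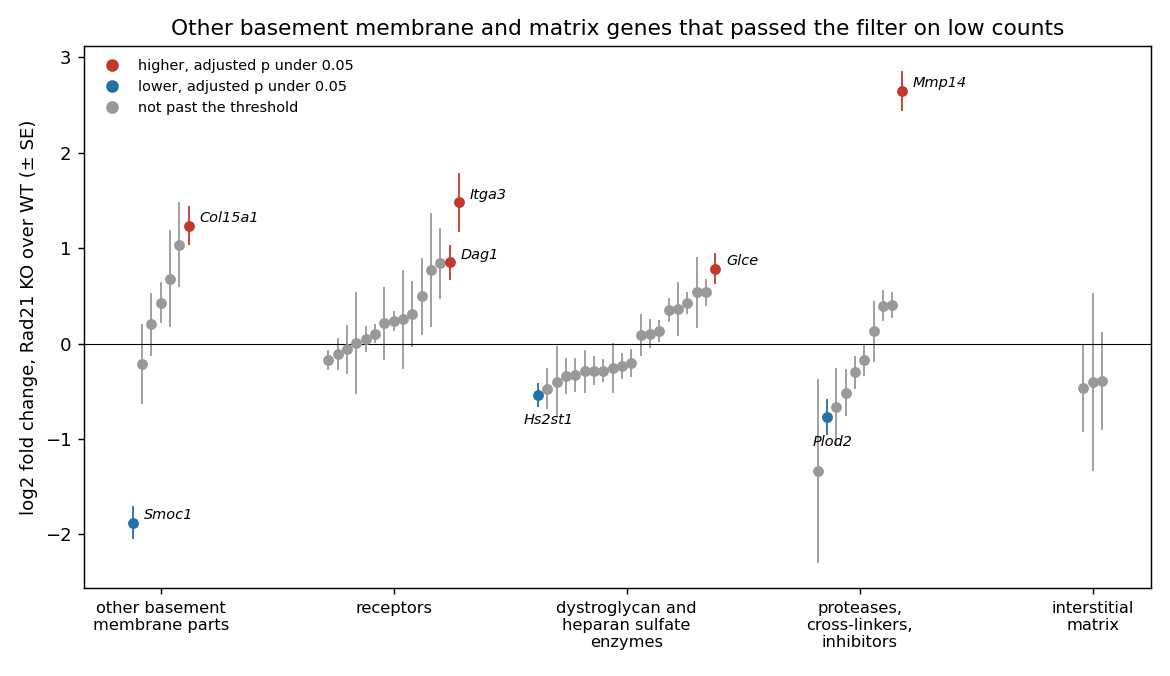
Log2 fold change of Rad21 KO over WT with its SE for each tested gene of 5 lists of basement membrane and matrix genes; red genes were higher and blue genes lower at an adjusted p under 0.05. Mmp14 at 2.65, Itga3 at 1.48 and Col15a1 at 1.24 stand highest, Smoc1 at -1.88 stands lowest, and most genes lie near 0.

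Neighbours along the chromosome were taken as the 3 nearest genes of the count table on each side of each member, in the order of RefSeq on GRCm38.p6. They make 54 genes, of which 40 were tested, 2 rose and 5 fell, with a median log2 fold change of -0.16. Over all genes tested 7.60% were higher and 5.17% lower, and the difference from the neighbours was not tested. Around Lama3, on chromosome 18, the adjacent genes Ankrd29 and Ttc39c were too low to test. Osbpl1a, an oxysterol-binding protein gene in the third place after Lama3, had 8 and 8 counts in Rad21 KO, against 48 and 39 in WT, a log2 fold change of -2.42 (SE 0.38; edgeR adjusted p = 0.00943). Cabyr, which lies between them, had 10 and 28 counts in Rad21 KO, against 31 and 22 in WT, and did not pass. On the other side the cholesterol transporter Npc1, in the second place, had 1515 and 1352 counts in Rad21 KO, against 890 and 844 in WT, a log2 fold change of 0.73 (SE 0.10; edgeR adjusted p = 0.00687).

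Neither gene adjacent to Hspg2 passed. They were Cdc42, a small GTPase of the actin cytoskeleton, with 1439 and 1462 counts in Rad21 KO, against 1728 and 1487 in WT, and the deubiquitinase Usp48, with 1530 and 1675, against 1406 and 1646. Their log2 fold changes were -0.14 (SE 0.11) and 0.07 (SE 0.12). At Nid1, itself near 0, the adjacent lysosomal trafficking gene Lyst had 2260 and 2758 counts in Rad21 KO, against 6902 and 7390 in WT, a log2 fold change of -1.51 (SE 0.13; edgeR adjusted p = 0.00173). Both knockout libraries stood far below both WT libraries. The other neighbours past the threshold were Lgals8 at Nid1 (-0.59), Traf3ip3 (-0.49) and Cd46 (-0.99) at Lamb3, and the interferon-induced Isg15 next to Agrn (1.19). Cd46 (-1.16 to -0.81) and Isg15 (1.08 to 1.31) missed the threshold whichever library was left out, Lgals8 without Rad21 KO replicate 1 (-0.45) or either WT library (-0.58 without replicate 1, -0.61 without replicate 2), and Traf3ip3 without either WT library (-0.48 and -0.50). These 4 also missed it with no filter on low counts.

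**Figure D3:**
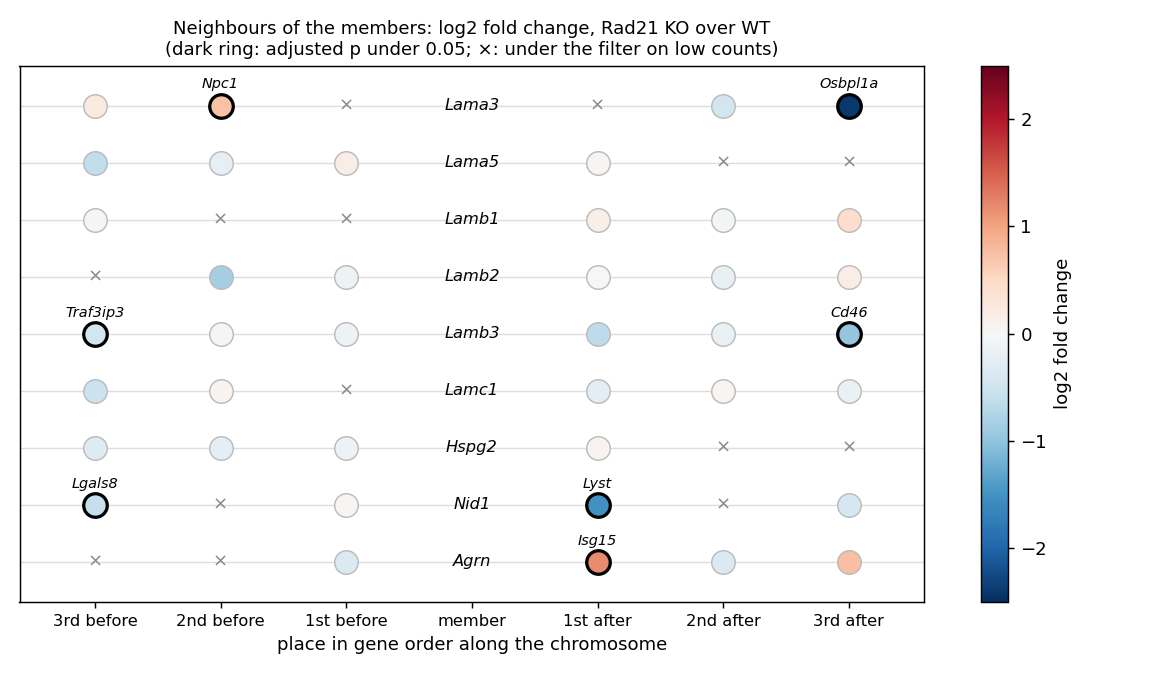
Log2 fold change of Rad21 KO over WT for the 3 nearest measured genes on each side of each member, in order of coordinate; colour gives the fold change, a dark ring an adjusted p under 0.05 and a cross a gene under the filter on low counts. Lyst next to Nid1 (-1.51) and Osbpl1a near Lama3 (-2.42) are the darkest blue, Isg15 next to Agrn (1.19) the darkest red, and the tested neighbours of Hspg2 are pale.

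The genes most like Lama3 and Hspg2 were sought among 9821 tested genes that averaged 5 CPM or more, by Euclidean distance over the 4 libraries of log2 CPM centred on each gene's mean. Angpt1, a ligand of the Tie2 receptor, was nearest at 3.06 log2 units, with 6 and 7 counts in Rad21 KO, against 242 and 161 in WT. Pakap followed at 4.39, with 2 and 13 counts in Rad21 KO, against 50 and 111 in WT. Neither came as close to 0 in the knockout as Lama3. For Hspg2 the distances were smaller: the zinc finger gene Zfp979 at 0.331 log2 units, with 246 and 156 counts in Rad21 KO, against 15 and 16 in WT, and the clock transcription factor Npas2 at 0.435, with 166 and 149 against 15 and 21. The nuclear receptor gene Nr1d1 was at 0.555, with 817 and 719 counts in Rad21 KO, against 57 and 59 in WT. Pakap and Zfp979 overlap other transcripts or belong to a family of like sequence, which leaves their counts uncertain.

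**Figure D4:**
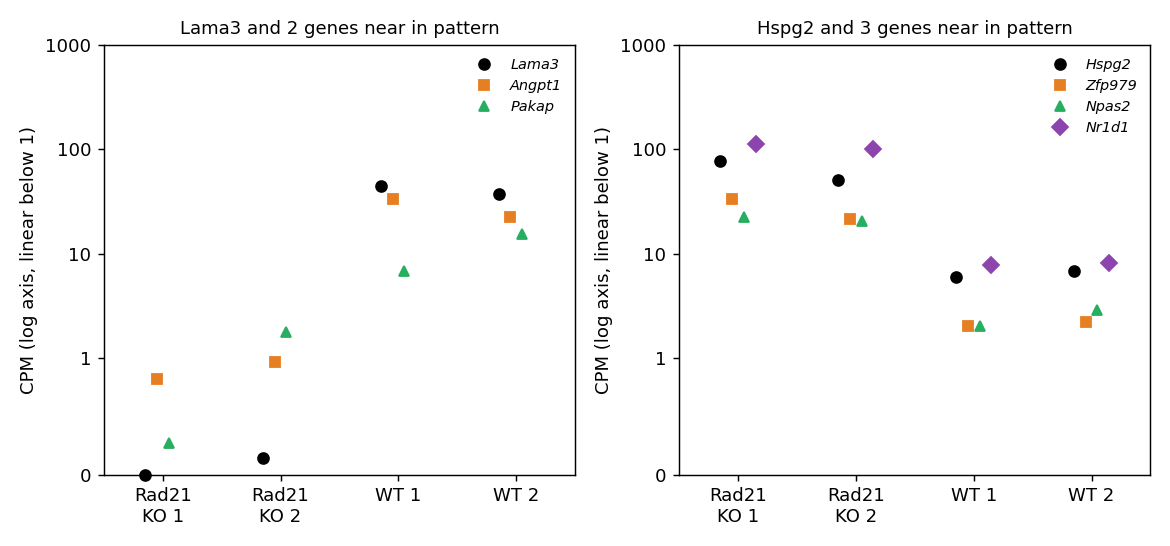
CPM in each library for Lama3 (left panel) and Hspg2 (right panel), in black, and for genes near to each in pattern (2 for Lama3, 3 for Hspg2), on a log axis that is linear below 1 CPM; Rad21 KO libraries stand left of WT libraries. Lama3 stands at 0 and 0.139 CPM in the knockout libraries, below Angpt1 and Pakap, while Hspg2, Zfp979, Npas2 and Nr1d1 all stand higher in both knockout libraries than in WT.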

How the data were processed

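RNA-seq of 2 Rad21 KO and 2 WT samples was analysed. Ribosomal RNA was removed and Illumina libraries were made, per the labels' protocols; the submitters' processing notes name build mm9. The authors deposited a table by Ensembl gene of what they call count equivalents, taken as estimated counts. All its values are whole. Aligner, counting program and strand: not given in the sources used here. Totals were 9384505 and 6914654 counts in Rad21 KO and 6633506 and 6500819 in WT, and 0 columns were left unused. Symbols were matched for 17342 of 17849 genes. Knockout columns misspell the gene and were matched by the rest of their name.

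Rounded counts entered edgeR 4.0.16 under R 4.3.3 (low counts removed by filterByExpr, TMM scaling, quasi-likelihood test without a block, Benjamini-Hochberg over 12003 genes, threshold 0.05). The SE is the fold change over the root of F. Intervals are exact at 95% (Clopper-Pearson) for counts summed over the libraries of a genotype. They cover counting error only, not the spread between libraries. Members and lists were chosen with earlier results of these data known. Genes were named by rule: all members, up to 4 called genes a list (otherwise the 2 most abundant), called neighbours and those next to Lama3 and Hspg2, and the 3 nearest patterns, of which 1 is not reported here. On simulated counts the fit found 73 of the 100 genes given a 2-fold change and 98 of the 100 given a 4-fold one, with 25 of 196 calls false. That share of false calls is above the 0.05 that the threshold is meant to hold. Calls with an adjusted p close to 0.05 are therefore less sure than that value says. The genes given a change averaged 5 CPM or more, so these rates do not cover lower genes such as Lamb2 and Agrn. Replicates were not duplicates: chi-square over its degrees of freedom was 93.2 for Rad21 KO and 8.01 for WT. Lars2 and Gm15564, which differed in share between the Rad21 KO libraries (34.48% and 12.65%), were included, and their part in the value was not computed. The 3 peak lists were not used, since no mm9 gene annotation was at hand. Alternatives were another normalization, no filter, DESeq2 1.42.0, limma-voom (3.58.1), the replicate block, leaving out Lars2 and Gm15564, and leaving out each library.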

Additional observations from a re-analysis of the deposited data

How the results depend on the processing

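Lama3 stayed lower and Hspg2 higher in Rad21 KO under all 10 alternatives tried, which refit the same 4 libraries on which the members were chosen and add no support. With no filter on low counts, calls over all genes were 285 higher and 148 lower, neighbours 1 and 2, sugar-chain enzymes 0 and 0, receptors 0 higher, proteases and cross-linkers 0 lower, and other basement membrane components 0 higher. In DESeq2, neighbours had 1 higher, the enzymes 2 higher (with Hs6st1) and 0 lower, receptors 1 higher and proteases 0 lower. With the replicate block, 381 genes were lower, neighbours had 1 higher and 3 lower, the enzymes 2 and 0, receptors 1 higher and proteases 0 lower. The replicate numbers showed no pairing across genes as a whole: deviations of same-numbered libraries correlated at 0.0385 over 12003 genes. A pairing that acts on some genes only was not tested. Leaving out each library gave 574 to 880 higher and 373 to 558 lower genes, 1 to 1 and 2 to 4 neighbours, 0 to 2 and 0 to 0 enzymes, 1 to 2 receptors higher, 0 to 2 proteases lower, and 0 to 1 interstitial genes lower (Col1a2). Lama3 was 297-fold to 651.8-fold lower without each of 3 libraries, and at least 100.5-fold lower, a bound at the floor of 3 counts, without Rad21 KO replicate 2. The lone sample was then assumed to vary like the other group. Calls were fewest without WT replicate 2 (574 higher, 373 lower). The causes were not tested. Peaks at the members were not run. Depth limits Nid1, Lamb1 and Lama5.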
